A study of Homo sapiens with 9 samples.

Results

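Immune checkpoint ligands are surface or secreted proteins through which a tumour cell can restrain the T cells, NK cells and macrophages that meet it. The genes described here are 10 such ligands of the tumour cell, chosen by symbol: CD274, PDCD1LG2, CD276, VTCN1, PVR, PVRL2, CEACAM1, LGALS9, TNFRSF14 and CD47. All 10 were among the 16630 genes of the table, and all 10 passed the filter on low values. The cells were H1650, a line derived from a human non-small cell lung carcinoma, transfected with siRNA at 20 nM and collected at day 3. Controls were given a non-targeting siRNA pool. In the siMENA group the pool was directed at ENAH, the gene of the actin regulator hMENA, called hMENA(t) in the labels. In the siMENA11a group a mix of 3 siRNAs was directed at exon 11a, found in the epithelial isoform hMENA11a. There were 3 libraries per group, given as biological replicates of this 1 line. The labels describe no other cells in the cultures, and all cells, controls included, were transfected.

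The best known of these ligands is PD-L1, the product of CD274, which binds PD-1 on T cells and dampens signalling from the T cell receptor. In carcinoma cells its transcription is induced by interferon gamma through JAK kinases and IRF1, and its protein is kept at the surface by partners such as CMTM6. PVR and PVRL2 bind the inhibitory receptor TIGIT and the activating receptor DNAM-1 on T and NK cells, and CD47 binds SIRP alpha on macrophages, a signal that restrains phagocytosis.

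ENAH RNA was 26.1, 30.0 and 26.1 FPKM (fragments scaled to transcript length and to the library total) in the control libraries, with means of 19.2% of control under siMENA and 38.1% under siMENA11a. These values are of the whole gene, so loss of the exon 11a isoform and sparing of other isoforms were not measured. Libraries were 1.14 to 1.59 times as deep as control replicate 1 by the ratio of their low values, and absolute depth is unknown. The 11 epithelial carcinoma markers were all measured and summed to 4360 to 5510 FPKM. Of 19 leukocyte markers the table listed 6, of which CD14, CD68 and CSF1R were above the filter, with sums of 14.7 to 22.6 FPKM. Of 11 fibroblast and endothelial markers it listed 7, with sums of 0.856 to 4.29 FPKM. The sums of these last lists overlapped between the groups.

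At baseline, in the control libraries, the ligands fell into an abundant and a scarce set. CD276 (27.1 ± 3.5 FPKM, mean ± SD, n = 3), CD47 (26.9 ± 1.8), PVR (26.6 ± 2.5) and PVRL2 (26.4 ± 1.8) lay within their spread of each other. VTCN1 followed at 20.6 ± 4.5 FPKM, and its highest library reached the range of CD276 and PVR. CEACAM1 (3.54 ± 0.19 FPKM) and TNFRSF14 (3.23 ± 0.56) lay far below these and overlapped each other. CD274 (1.04 ± 0.065), PDCD1LG2 (0.616 ± 0.067) and LGALS9 (0.55 ± 0.13) were the lowest, and the last 2 overlapped. By the mean over all 9 libraries, CD276 stood at percentile 79.3 of the genes tested, CD274 at 9.89 and LGALS9 at 2.92. Fewer cells that express a gene and less RNA per cell cannot be told apart in these bulk libraries.

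**Figure D1:**
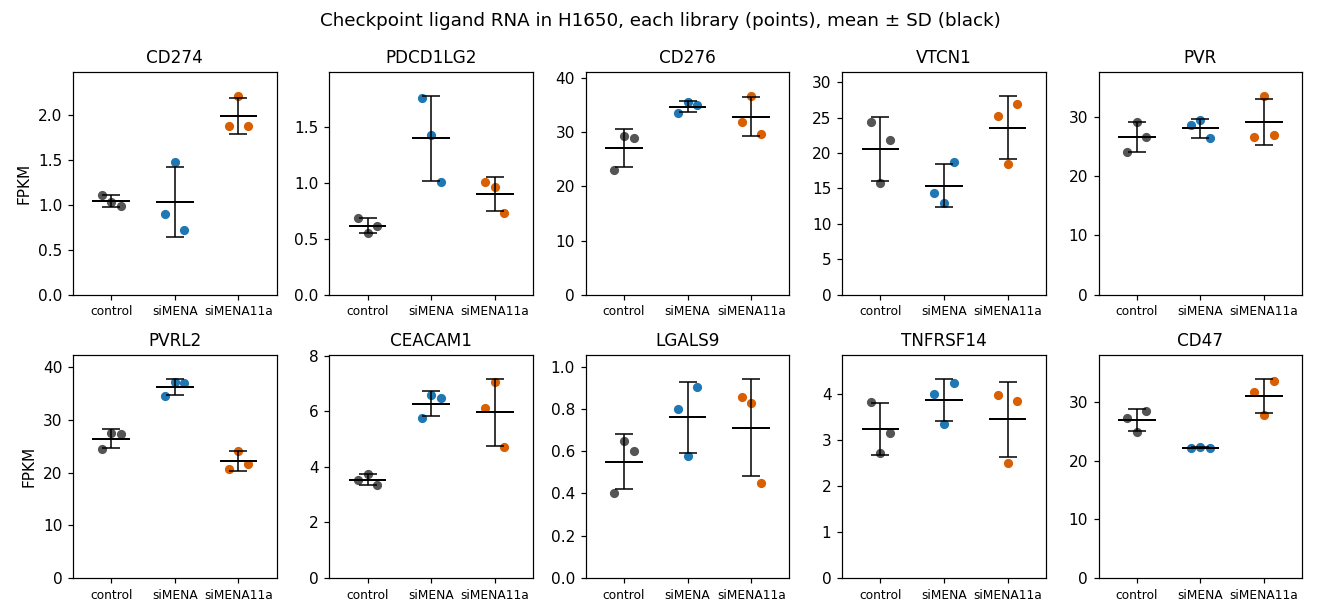
FPKM of the 10 checkpoint ligands in control, siMENA and siMENA11a libraries. Points are single libraries in the order of their replicate number, and black lines are the mean ± SD of 3. CD274 separates the siMENA11a libraries (1.87 to 2.21 FPKM) from both other groups, PVRL2 separates all 3 groups, and CEACAM1 is higher in both siRNA groups than in control.

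The promoters of the ligands are shown for CD274 and CEACAM1, the ligands whose promoter held an interferon response word and whose RNA passed a test. RefSeq gave promoters for 9 of the 10 ligands (300 bases each, build GRCh38.p14, from 250 bases before the annotated start), with 2 for CD276. Capitals mark the words found on either strand, of GAAANNGAA (the core of an interferon response element), TTCNNNGAA (a STAT site) and GGANTTTCC (an NF-kB site). The CD274 sequence is chr9:5450292-5450591 on the plus strand, and the CEACAM1 sequence is chr19:42528432-42528731 on the minus strand.
CD274: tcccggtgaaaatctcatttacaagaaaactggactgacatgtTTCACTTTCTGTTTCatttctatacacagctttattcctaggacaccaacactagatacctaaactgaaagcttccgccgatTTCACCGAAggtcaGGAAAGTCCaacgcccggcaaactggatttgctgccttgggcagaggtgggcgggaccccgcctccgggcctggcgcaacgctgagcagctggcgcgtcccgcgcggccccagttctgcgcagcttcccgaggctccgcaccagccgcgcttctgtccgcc
CEACAM1: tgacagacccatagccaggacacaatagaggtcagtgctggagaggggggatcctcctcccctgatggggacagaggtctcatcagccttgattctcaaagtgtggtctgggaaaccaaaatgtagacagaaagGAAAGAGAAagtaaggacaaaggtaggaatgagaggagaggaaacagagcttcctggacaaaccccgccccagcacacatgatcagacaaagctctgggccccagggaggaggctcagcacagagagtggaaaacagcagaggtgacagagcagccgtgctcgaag
The CD274 promoter held 2 overlapping interferon words on the minus strand, which begin 207 and 201 bases before the start. It also held a STAT word at 125 bases and an NF-kB word at 111 bases before the start. CEACAM1 held 1 interferon word at 116 bases before the start. Among the other ligands, LGALS9 held 1 interferon word at 8 bases and VTCN1 held 1 NF-kB word at 246 bases before the start. Over all 35116 promoters searched, 8.11% held the interferon word, 7.66% the STAT word and 1.64% the NF-kB word. These matches describe letters, and binding was not measured.

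**Figure D2:**
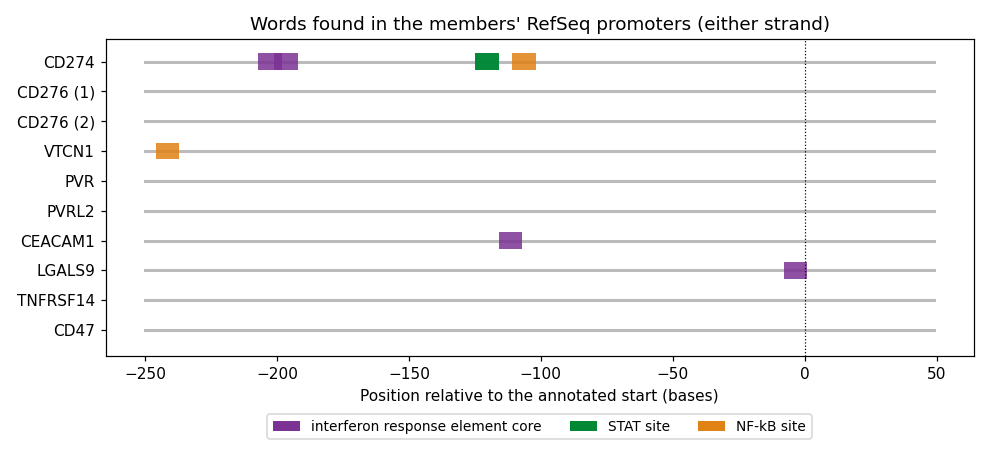
Positions of the 3 words in the promoters of 9 checkpoint ligands, with the annotated start at 0 (dotted line). Grey lines are the 300 bases searched, and coloured blocks are words. CD274 is the gene with all 3 words.

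Of the ligands, 4 were higher and 1 lower with siMENA than with control, and 5 did not pass (limma, adjusted p under 0.05). Of all 13273 genes tested, 10.3% were higher and 8.24% lower in that comparison. With siMENA11a, 2 were higher and 1 lower than control, against 8.16% and 11.3% of all genes. Between the siRNA groups, 3 were higher and 1 lower with siMENA11a than with siMENA, against 14.4% and 22.2% of all genes. Groups did not overlap for 5, 5 and 4 of the 10 ligands in these comparisons, where 40.1%, 36.7% and 47.8% of all genes did not overlap. The median fold change of the ligands, on the log2(FPKM + 1) scale used throughout, was 0.19, 0.19 and -0.06, beside 0.04, -0.01 and -0.05 over all genes. Regardless of direction, the median size was 0.31, 0.21 and 0.24 for the ligands and 0.14, 0.13 and 0.18 for all genes. Both siRNA groups were compared with the same control libraries, so these comparisons are not independent of each other. Under median-ratio scaling the share of passing genes that were lower moved from 44.4% to 56.2% with siMENA and from 60.6% to 50.1% between the siRNA groups, whereas 5, 3 and 4 ligands passed as before. P-values set each difference against the spread between these libraries of 1 line, and other lines were not sampled.

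**Figure D3:**
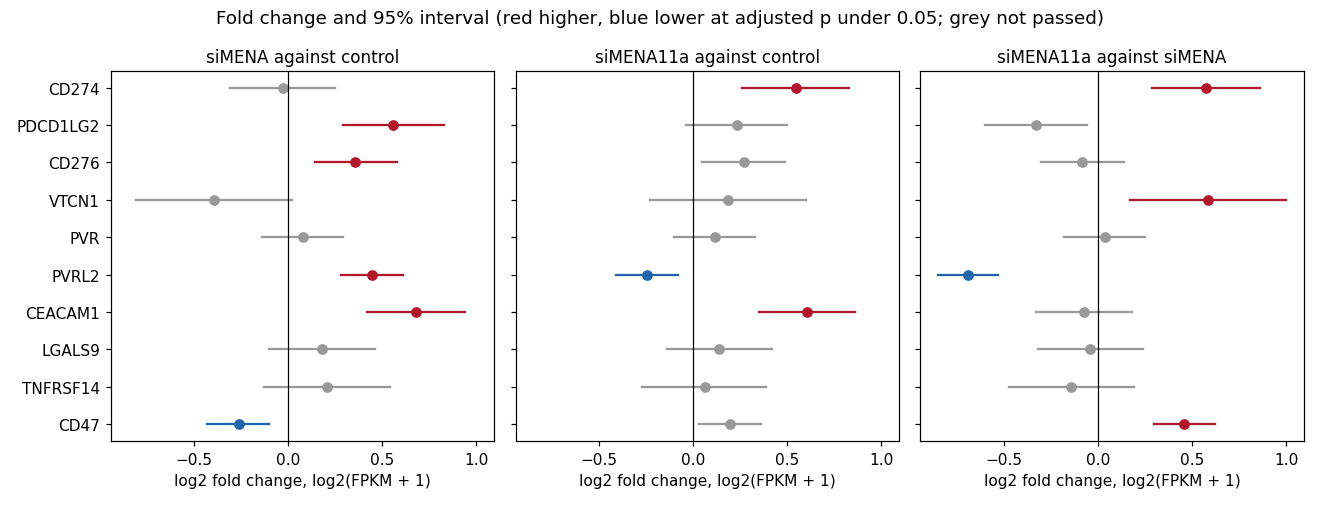
Fold change of each ligand on the log2(FPKM + 1) scale with its 95% interval, in the 3 comparisons. Red and blue are genes higher and lower at an adjusted p under 0.05, and grey genes did not pass. CEACAM1 is higher than control in both siRNA groups, whereas PVRL2 is higher with siMENA and lower with siMENA11a.

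Among the ligands of PD-1, CD274 passed as higher with siMENA11a, and PDCD1LG2 passed as higher with siMENA. CD274 measured 1.11, 1.03 and 0.987 FPKM in control replicates 1 to 3, 0.896, 1.47 and 0.721 FPKM with siMENA, and 1.87, 2.21 and 1.87 FPKM with siMENA11a. Every siMENA11a library lay above every other library, while the siMENA libraries lay on both sides of the controls, with replicate 2 above and the others below. The mean with siMENA11a was 1.9 times that of control, a log2 fold change of 0.54 (SE 0.13, limma adjusted p = 0.0155). Against siMENA the difference was 0.57 (SE 0.13, limma adjusted p = 0.00631), and siMENA differed from control by -0.03 (95% interval -0.31 to 0.25, adjusted p = 0.9). The call against control ended without control replicate 3 (0.52, limma adjusted p = 0.0552), and the one against siMENA held in all 16 alternatives in which CD274 was tested. With a pseudocount of 0.1 the fold change against control was 0.86, since the gene is scarce.

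PDCD1LG2 encodes PD-L2, the other ligand of PD-1. It measured 0.683, 0.55 and 0.614 FPKM in control, 1.76, 1.43 and 1.01 FPKM with siMENA, and 1.01, 0.961 and 0.729 FPKM with siMENA11a. All libraries of both siRNA groups lay above all control libraries. The rise with siMENA was 2.27 times the control mean, a log2 fold change of 0.56 (SE 0.12, limma adjusted p = 0.012), or 1.04 with a pseudocount of 0.1. The siMENA11a value was 0.23 (95% interval -0.04 to 0.50, limma adjusted p = 0.215). With all 9 libraries the siRNA groups differed by -0.33 (95% interval -0.60 to -0.06, limma adjusted p = 0.0585), which did not pass. The difference passed without siMENA replicate 3 (adjusted p = 0.0145).

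CD276 and VTCN1 encode the B7 family proteins B7-H3 and B7-H4, which have been described as inhibitors of T cells. CD276 measured 23.1, 29.3 and 29.0 FPKM in control, 33.6, 35.7 and 35.1 FPKM with siMENA, and 32.0, 36.8 and 29.8 FPKM with siMENA11a. Both siRNA groups lay above the controls without overlap, and control replicate 1 was the lowest library. With siMENA, CD276 was 28.3% higher than control (log2 fold change 0.36, SE 0.10, limma adjusted p = 0.0327). That call ended without control replicate 1 or without any one of the 3 siMENA libraries (adjusted p 0.0714 to 0.0927). The siMENA11a value of 0.27 did not pass (limma adjusted p = 0.0826).

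VTCN1 varied more among replicates than the other abundant ligands. It measured 24.4, 15.7 and 21.8 FPKM in control, 14.3, 13 and 18.8 FPKM with siMENA, and 25.2, 18.5 and 27.0 FPKM with siMENA11a. Replicate 2 was the lowest library of each group, and all 3 groups overlapped. The 2 siRNA groups differed by 0.58 (SE 0.19, limma adjusted p = 0.0327), higher with siMENA11a. Omission of siMENA replicate 1 or 2, or of siMENA11a replicate 1 or 3, ended this call (adjusted p 0.0952 to 0.109). Against control, siMENA gave -0.40 (95% interval -0.81 to 0.02, adjusted p = 0.164) and siMENA11a gave 0.19 (adjusted p = 0.524). With the replicate number as a block, the siMENA value of -0.40 passed (limma adjusted p = 0.0175).

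The TIGIT ligands PVR (CD155) and PVRL2 (CD112, also named NECTIN2) parted ways. PVRL2 measured 24.4, 27.6 and 27.4 FPKM in control, 34.6, 37.3 and 37.1 FPKM with siMENA, and 20.6, 24.2 and 21.7 FPKM with siMENA11a. The 3 groups did not overlap, in the order siMENA11a, control and siMENA. PVRL2 rose by 37.4% with siMENA (log2 fold change 0.45, SE 0.07, limma adjusted p = 0.00317). It fell with siMENA11a, by 0.25 on the log2 scale (SE 0.07, limma adjusted p = 0.0395). The direct difference between the siRNA groups was -0.69 (SE 0.07, limma adjusted p = 9.61e-05), and it held in every alternative, as did the rise with siMENA. The fall with siMENA11a did not pass with only those 2 groups in the fit (adjusted p = 0.0722). It was also lost without control replicate 2 or 3, siMENA replicate 2 or 3, or siMENA11a replicate 1 or 3, with an adjusted p of 0.0522 to 0.13.

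PVR gave no passed difference. It measured 24.1, 29.1 and 26.7 FPKM in control, 28.6, 29.5 and 26.4 FPKM with siMENA, and 26.7, 33.6 and 26.9 FPKM with siMENA11a. Replicate 2 was the highest library in each group, and all groups overlapped. The 95% intervals of the log2 fold change were -0.14 to 0.29 for siMENA and -0.10 to 0.33 for siMENA11a against control (limma adjusted p = 0.611 and 0.435).

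CEACAM1, a cell adhesion molecule that binds itself on neighbouring cells and also TIM-3 on T cells, was higher with both siRNAs. It measured 3.54, 3.73 and 3.35 FPKM in control, 5.77, 6.59 and 6.48 FPKM with siMENA, and 6.13, 7.05 and 4.73 FPKM with siMENA11a. The lowest siRNA library, siMENA11a replicate 3, still lay above the highest control. CEACAM1 rose to 1.77 times the control mean with siMENA (log2 fold change 0.68, SE 0.11, limma adjusted p = 0.00373) and to 1.69 times with siMENA11a (0.61, SE 0.11, adjusted p = 0.00618). These calls held in all 17 alternatives each. The siRNA groups differed by -0.07 (95% interval -0.33 to 0.18, limma adjusted p = 0.648). Among all genes tested, CEACAM1 ranked 200 with siMENA and 332 with siMENA11a by the size of its fold change. CEACAM genes share sequence, so the split of reads between them is uncertain.

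CD47 was the ligand that was lower with siMENA. It measured 27.3, 24.8 and 28.5 FPKM in control, 22.2, 22.3 and 22.1 FPKM with siMENA, and 31.6, 27.8 and 33.6 FPKM with siMENA11a. All siMENA libraries lay below all others, with an SD of 0.13 FPKM, and siMENA11a overlapped control at its replicate 2. CD47 fell by 0.26 on the log2 scale with siMENA (SE 0.07, limma adjusted p = 0.0345). The call ended without control replicate 1 or 3, any siMENA library, or siMENA11a replicate 1 (adjusted p 0.051 to 0.125). With siMENA11a the value was 0.20 (95% interval 0.03 to 0.36, limma adjusted p = 0.089), which did not pass. Between the siRNA groups CD47 was 1.4 times as high with siMENA11a (log2 fold change 0.46, SE 0.07, limma adjusted p = 0.00112), in every alternative.

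LGALS9 encodes galectin-9, a secreted ligand of TIM-3, and TNFRSF14 encodes HVEM, which binds BTLA on lymphocytes. LGALS9 measured 0.403, 0.649 and 0.598 FPKM in control, 0.799, 0.576 and 0.902 FPKM with siMENA, and 0.856, 0.827 and 0.45 FPKM with siMENA11a. TNFRSF14 measured 3.83, 2.71 and 3.14 FPKM in control, 4, 3.34 and 4.24 FPKM with siMENA, and 3.97, 2.50 and 3.85 FPKM with siMENA11a. All groups of both genes overlapped. The log2 fold changes with siMENA were 0.18 (95% interval -0.10 to 0.46) for LGALS9 and 0.20 (-0.13 to 0.54) for TNFRSF14, and neither passed (limma adjusted p = 0.344 and 0.368). With siMENA11a they were 0.14 (-0.14 to 0.42) and 0.06 (-0.27 to 0.39), which did not pass either. LGALS9 has near-identical copies in the genome, so its low level is uncertain.

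A list of 12 genes that carry or inhibit the interferon gamma signal to CD274 was next described, and all were tested. With siMENA, 6 were higher and 2 lower than control, and with siMENA11a 5 were higher and 0 lower. Over all genes tested, 10.3% were higher and 8.24% lower with siMENA, and 8.16% and 11.3% with siMENA11a, which is the background for this list and those that follow. The median log2 fold change of the list was 0.13 and 0.16, beside 0.04 and -0.01 over all genes. The higher genes included inhibitors, SOCS1 with siMENA and SOCS3 with siMENA11a, so these counts give no direction of the signal. IRF9, a transcription factor of the interferon response, rose from 15.1 ± 0.6 to 20.8 ± 0.65 FPKM with siMENA and to 29.4 ± 2.2 FPKM with siMENA11a (log2 fold changes 0.44 and 0.91, limma adjusted p = 0.00175 and 6.06e-05). It was also higher with siMENA11a than with siMENA (0.48, limma adjusted p = 0.00039). IRF1, named above, rose from 21.9 ± 1.3 to 28.3 ± 2 FPKM with siMENA and to 26.4 ± 2 FPKM with siMENA11a. Its log2 fold changes were 0.35 and 0.26 (limma adjusted p = 0.00946 and 0.034), and these calls were not followed through the alternatives. The siRNA groups differed in IRF1 by -0.10, which did not pass (adjusted p = 0.336). A link of IRF9 or IRF1 to CD274 was not tested. SOCS1, an inhibitor of JAK kinases, rose from 4.45 ± 0.63 to 6.96 ± 1.5 FPKM with siMENA (0.54, limma adjusted p = 0.0237) and was 3.83 ± 0.38 FPKM with siMENA11a (-0.17, adjusted p = 0.422). The SOCS1 rise was lost on omission of control replicate 3 or of siMENA replicate 1 or 2 (adjusted p 0.0642 to 0.0879). Between the siRNA groups SOCS1 was lower with siMENA11a (-0.71, limma adjusted p = 0.0032).

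The 2 genes that were lower with siMENA were IFNGR1, the ligand-binding chain of the receptor, and SOCS3, a feedback inhibitor of cytokine signalling. IFNGR1 fell from 29.0 ± 3.2 to 17.4 ± 2.9 FPKM with siMENA (log2 fold change -0.72, limma adjusted p = 0.0029). It measured 37.3 ± 2.4 FPKM with siMENA11a (0.35, adjusted p = 0.0536). SOCS3 fell from 11.9 ± 1.4 to 7.03 ± 0.87 FPKM with siMENA (-0.68, limma adjusted p = 0.00255) and was 15.3 ± 1.3 FPKM with siMENA11a (0.35, adjusted p = 0.0449). That last call ended with no filter on low values and with only the 2 groups in the fit. It also ended without control replicate 1 or 3, siMENA replicate 3, or siMENA11a replicate 2 or 3, with an adjusted p of 0.0523 to 0.152 in all. Between the siRNA groups, IFNGR1 and SOCS3 were higher with siMENA11a by 1.07 and 1.03 (limma adjusted p = 0.000107 and 8.75e-05). The part of SOCS1, IFNGR1 or SOCS3 in the level of CD274 was not tested.

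Of 9 other transcription factors known to act on CD274, 3 were higher and 0 lower with siMENA, and 2 higher and 0 lower with siMENA11a, with medians of 0.15 and 0.11. MYC rose from 24.1 ± 1.4 to 36.8 ± 0.34 FPKM with siMENA (log2 fold change 0.59, limma adjusted p = 0.000522) and was 25.6 ± 2.3 FPKM with siMENA11a (0.08, adjusted p = 0.439). JUN, a subunit of AP-1, rose from 19.0 ± 1.1 to 26.9 ± 0.86 and 24.6 ± 1.8 FPKM (0.49 and 0.36, limma adjusted p = 0.00126 and 0.00545). NFKB1, the p105 and p50 subunit of NF-kB, rose from 8.57 ± 0.12 to 11.4 ± 0.62 and 10.5 ± 0.73 FPKM (0.37 and 0.26, limma adjusted p = 0.00514 and 0.0208). The siMENA11a call of NFKB1 ended without any one control library or siMENA11a replicate 2 (adjusted p 0.0532 to 0.0593).

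**Figure D4:**
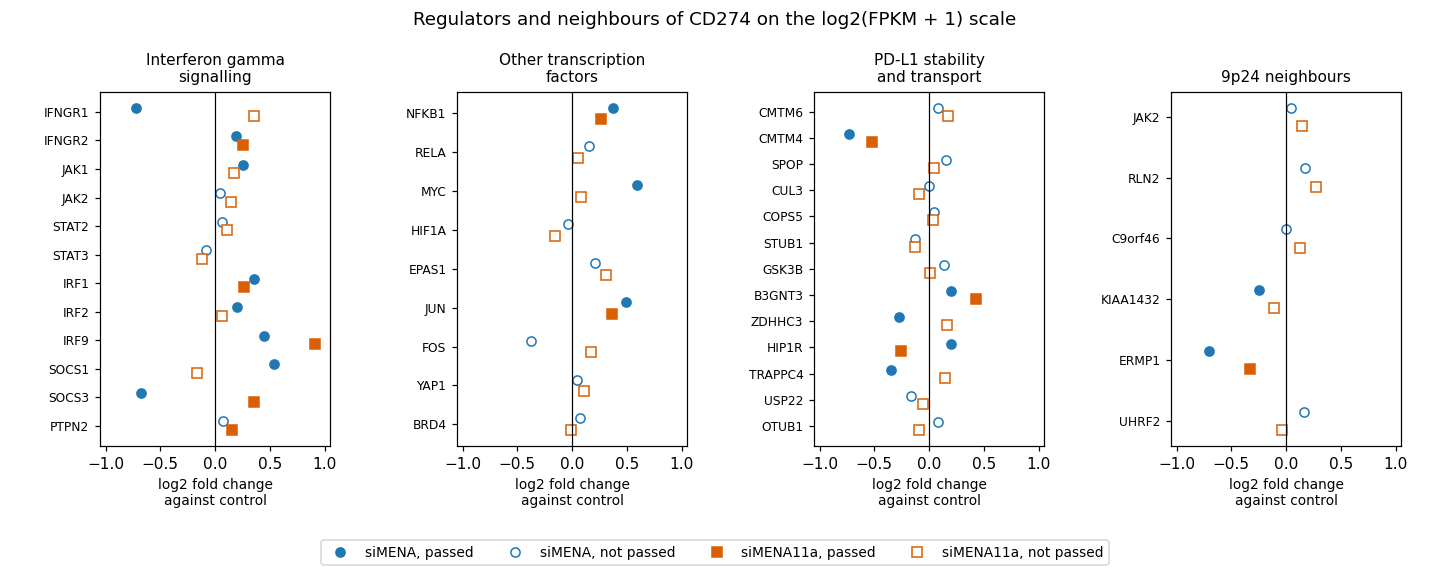
Fold change against control, on the log2(FPKM + 1) scale, of the tested genes in 4 lists around CD274. Circles are siMENA and squares siMENA11a, filled where the adjusted p was under 0.05. IRF9 lies to the right in both siRNA groups, and IFNGR1, SOCS3, CMTM4 and ERMP1 lie to the left with siMENA.

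The PD-L1 protein is also set after transcription, and 13 genes of its stability and transport were tested. With siMENA 2 were higher and 3 lower, and with siMENA11a 1 was higher and 2 were lower, with medians of 0.04 and 0.01. CMTM4, a partner that protects PD-L1 from degradation, fell from 34.8 ± 2.2 to 20.7 ± 3.3 FPKM with siMENA and 24.1 ± 3.7 FPKM with siMENA11a (log2 fold changes -0.73 and -0.52, limma adjusted p = 0.00385 and 0.0173). Omission of control replicate 1 or 3 ended the siMENA11a call of CMTM4 (adjusted p 0.0557 to 0.0579). CMTM6, the partner named above, was more abundant and did not pass. It measured 80.6 ± 4.4 FPKM in control, 85.5 ± 3 FPKM with siMENA and 91.1 ± 4.2 FPKM with siMENA11a (0.08 and 0.17, limma adjusted p = 0.348 and 0.063). B3GNT3, a glycosyltransferase that acts on PD-L1, rose from 35.2 ± 0.43 to 47.8 ± 1.8 FPKM with siMENA11a (0.43, limma adjusted p = 0.000584). Its siMENA level was 40.5 ± 1.6 FPKM (0.20, adjusted p = 0.0223), which was lost with median-ratio scaling, without any one control library, and without siMENA replicate 1 or 3 (adjusted p 0.0509 to 0.0806).

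TRAPPC4, which takes part in the recycling of PD-L1 to the surface, and ZDHHC3, a palmitoyltransferase that acts on it, fell with siMENA. TRAPPC4 went from 22.6 ± 0.41 to 17.5 ± 0.49 FPKM and ZDHHC3 from 12.3 ± 0.35 to 9.98 ± 0.4 FPKM (log2 fold changes -0.35 and -0.28, limma adjusted p = 0.00311 and 0.00761). With siMENA11a they were 24.9 ± 1.6 and 13.9 ± 0.35 FPKM, which did not pass against control (limma adjusted p = 0.126 and 0.0654). HIP1R, also of this list, was higher with siMENA and lower with siMENA11a than control (0.20 and -0.26, limma adjusted p = 0.0413 and 0.0146). Its calls were not followed through the alternatives. PD-L1 protein was not measured in these libraries.

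CD274 lies in chromosome band 9p24, and PDCD1LG2, described above as a ligand and higher with siMENA (log2 fold change 0.56, limma adjusted p = 0.012), lies beside it. Of the neighbours other than the ligands 6 were tested. With siMENA 0 of these 6 were higher and 2 lower, and with siMENA11a 0 were higher and 1 lower, with medians of 0.02 and 0.05. ERMP1, an endoplasmic reticulum metallopeptidase, fell from 58.1 ± 4.7 to 35.3 ± 2.8 FPKM with siMENA (log2 fold change -0.70, limma adjusted p = 0.00131). With siMENA11a ERMP1 was 46.3 ± 5.5 FPKM (-0.33, adjusted p = 0.0406), a call lost in 9 of its 17 alternatives. These were no filter on low values, median-ratio scaling, quantile normalization, 2 groups in the fit, and leaving out control replicate 1 or 3, siMENA replicate 1, or siMENA11a replicate 1 or 2, with an adjusted p of 0.0528 to 0.128. KIAA1432 fell from 17.6 ± 0.34 to 14.7 ± 0.64 FPKM with siMENA (-0.25, limma adjusted p = 0.0105).

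For CD47, 5 genes of its ligands, its maturation and the opposing calreticulin signal were tested. With siMENA 0 were higher and 0 lower, and with siMENA11a 0 were higher and 2 lower, with medians of 0.06 and -0.13. CALR, which encodes calreticulin, a signal for phagocytosis when it reaches the cell surface, fell from 350 ± 7.1 to 226 ± 12 FPKM with siMENA11a (log2 fold change -0.63, limma adjusted p = 0.000319). QPCTL, the enzyme that modifies the SIRP alpha binding site of CD47, fell from 9.23 ± 0.51 to 5.73 ± 0.66 FPKM (-0.61, limma adjusted p = 0.003). Both were also lower with siMENA11a than with siMENA (-0.54 and -0.67, limma adjusted p = 0.000249 and 0.000738). A link of these genes to CD47 was not tested.

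Relatives of CEACAM1 and LGALS9 were tested as well. Of 11 other CEACAM genes the table listed 3 and 1 was tested, CEACAM19, which rose from 1.81 ± 0.055 to 3.46 ± 1.1 FPKM with siMENA11a (log2 fold change 0.64, limma adjusted p = 0.014). LGALS1 and LGALS3, counted among the other ligands, were abundant galectins, at means of 1060 and 171 FPKM in control. Of 11 further galectin genes 5 were listed and 2 tested, and LGALS8 rose from 5.61 ± 0.28 to 7.75 ± 0.42 FPKM with siMENA11a (0.40, limma adjusted p = 0.00373). Neither CEACAM19 nor LGALS8 passed with siMENA, at -0.03 and 0.03 (limma adjusted p = 0.919 and 0.815).

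Among 21 other tested ligands that restrain or stimulate lymphocytes, 3 were higher and 2 lower with siMENA, and 4 higher and 3 lower with siMENA11a, with medians of 0.04 and 0.00. BTN3A2 and BTN3A3, butyrophilins of the family that engages gamma delta T cells, were higher in siMENA11a libraries by 0.45 and 0.55 on the log2 scale (limma adjusted p = 0.00565 and 0.00638). BTN3A2 rose with siMENA too, by 0.41 (limma adjusted p = 0.00867), whereas BTN3A3 at 0.28 did not pass (adjusted p = 0.0937). The BTN3A genes share sequence, so the values of each are uncertain. CD24 fell from 251 ± 15 to 188 ± 1.7 FPKM with siMENA and to 207 ± 11 FPKM with siMENA11a. Its log2 fold changes were -0.42 and -0.28 (limma adjusted p = 0.00215 and 0.013), and these calls were not followed through the alternatives. HMGB1, a nuclear protein that binds TIM-3 when released, fell from 108 ± 1.3 to 80.4 ± 4.5 FPKM with siMENA11a (-0.43, limma adjusted p = 0.0014). With siMENA it fell to 90.9 ± 5.2 FPKM (-0.25, limma adjusted p = 0.0173), which was lost on omission of control replicate 3 or siMENA replicate 3 (adjusted p 0.052 to 0.0614).

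NT5E, which encodes CD73, the enzyme that makes adenosine outside the cell, moved in opposite directions. It was 5.24 ± 0.53 FPKM in control, 7.23 ± 0.77 FPKM with siMENA (log2 fold change 0.40, limma adjusted p = 0.0196) and 3.65 ± 0.37 FPKM with siMENA11a (-0.43, adjusted p = 0.0144). Omission of control replicate 1 or 3, or of siMENA replicate 1 or 2, ended the call of the rise (adjusted p 0.0676 to 0.0728). Omission of control replicate 2 or siMENA11a replicate 1 ended that of the fall (0.0515 to 0.0532). The difference between the siRNA groups was -0.82 (limma adjusted p = 0.000208) and held in every alternative.

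Ligands of NK cell receptors were tested for 7 genes, of which CLEC2D binds the inhibitory receptor CD161 and the others the activating receptor NKG2D. With siMENA 2 were higher and 0 lower, and with siMENA11a 0 were higher and 0 lower, with medians of 0.42 and -0.04. RAET1L and ULBP3, stress-induced ligands of NKG2D, rose with siMENA from 0.751 ± 0.29 to 2.00 ± 0.64 FPKM and from 3.98 ± 0.32 to 6.09 ± 1.1 FPKM (log2 fold changes 0.77 and 0.50, limma adjusted p = 0.0096 and 0.0169). The ULBP3 call was lost on omission of control replicate 2 or 3, or of siMENA replicate 1 or 2 (adjusted p 0.0525 to 0.0667). Against siMENA, 3 of the 7 were lower with siMENA11a and 0 higher, beside 22.2% and 14.4% of all genes. They were ULBP2 (-0.87, limma adjusted p = 0.00244), ULBP3 (-0.73, adjusted p = 0.0012) and RAET1L (-0.53, adjusted p = 0.026). ULBP2 did not pass against control with siMENA or siMENA11a (limma adjusted p = 0.094 and 0.0788). The RAET1L difference was lost without siMENA replicate 2 or siMENA11a replicate 1 or 3, with an adjusted p of 0.0578 to 0.0839, and ULBP and RAET1 genes share sequence.

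Of the 11 epithelial markers, 0 were higher and 2 lower with siMENA, and 1 was higher and 3 were lower with siMENA11a, with medians of -0.05 and 0.00. All genes gave 10.3% higher and 8.24% lower with siMENA, so the siMENA count is near the background. ESRP1, an epithelial splicing regulator, fell from 45.2 ± 2 to 33.7 ± 2.6 FPKM and KRT7, a keratin, from 479 ± 24 to 359 ± 4.3 FPKM with siMENA (limma adjusted p = 0.00191 and 0.0059). CDH1, which encodes E-cadherin, fell from 254 ± 9.2 to 190 ± 10 FPKM and KRT18 from 1300 ± 52 to 989 ± 73 FPKM with siMENA11a (limma adjusted p = 0.00196 and 0.0102). The marker that was higher with siMENA11a was ESRP2, which rose from 24.6 ± 3.4 to 32.5 ± 1.9 FPKM (limma adjusted p = 0.0312). Its call was not followed through the alternatives. The summed marker level was 5150 to 5510 FPKM in control, 5040 to 5280 FPKM with siMENA and 4360 to 4890 FPKM with siMENA11a. Their part in the ligand results was not tested.

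Genes whose pattern over the 9 libraries was most like that of a changed ligand are given as a description, with Pearson r on the log2 scale. Small RNA genes and genes with LOC, LINC, KIAA, FLJ, MGC, open reading frame or clone-based names were passed over. For CD274 they were SH3GL2 (0.961), ARSD (0.954) and ZNF436 (0.951). For PVRL2 they were DNMT3B (0.989), SRPK2 (0.987) and NUP188 (0.987), and for CD47 ABHD5 (0.987), IPO7 (0.977) and ZNF544 (0.976). For CEACAM1 they were SDCBP (0.961), SH3RF1 (0.960) and SLC6A6 (0.960). The values of PDCD1LG2 went most closely with PDXDC1 (0.974), those of CD276 with SIK1 (0.987) and those of VTCN1 with THBS3 (0.985). The 9 libraries share their groups and library totals, and many genes that differ between the groups give a high r.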

How the data were processed

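RNA of 9 H1650 libraries was ribosome-depleted and sequenced as stranded pairs, per the labels' protocols. The authors deposited 1 table of FPKM values. The submitters' processing notes name hg19, and for the aligner and the counting tool nothing is given in the sources used here. Whole numbers far above their gene's other values had lost their decimal point, so 11524 of 145711 values (7.91%), 5 of them in the ligands, were divided by 1000, and those with decimal values to compare with stood at least 198.2-fold above them. Genes with a missing value (1286) or a mean under 0.5 FPKM were left out. FPKM depends on each library's total, and a change in highly abundant RNAs moves every other gene; absolute depth is unknown.

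Values were compared as log2(FPKM + 1) with limma 3.58.1 in R 4.3.3, in 1 fit over 9 libraries with a mean-variance trend and 6 residual degrees of freedom. P-values were adjusted by Benjamini-Hochberg over 13273 genes, and an adjusted p under 0.05 passed. The script was tested on simulated data. An exact permutation test planned for genes outside the fit was not needed. Alternatives were 8 other settings and the omission of each of the 9 libraries.

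The members and lists were chosen with earlier results of these data known. A gene of 1 list is not reported here, and counts of that list leave it out. Named besides the ligands and ENAH are, from each list, up to 4 genes with the largest change among those that passed against control. For changed ligands, genes among the 3 most correlated are named too, with small RNA genes and the name types listed above passed over. IRF1, CMTM6, HIP1R, LGALS1, LGALS3, CD24, ESRP2 and ULBP2 are named as well. Deviations of same-numbered control and siMENA libraries correlated at 0.124, 0.378 and 0.196, each over 0.1, which counted as pairing by the rule used. Differently numbered libraries of these groups correlated at -0.242 to 0.113. Other pairs of groups did not meet the rule. Control replicate 1 correlated at 0.206 with siMENA11a replicate 1 and at 0.321 with siMENA11a replicate 3. The library names run in the order control, siMENA and siMENA11a within each replicate number. Whether this marks libraries prepared together is not stated. The main fit held no block, since the labels state none, and the replicate block was run as an alternative. Promoters are from RefSeq.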

Additional observations from a re-analysis of the deposited data

Results flagged for a closer look

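PVRL2 differed between the siRNA groups. It was flagged because its passed changes against control had opposite directions, higher with siMENA and lower with siMENA11a. The flag also required the direct test between the siRNA groups to pass, so that test is not separate support. The direct test of that difference gave a log2 fold change of -0.691 for siMENA11a against siMENA (limma adjusted p = 9.61e-05), and all siMENA11a libraries lay below all siMENA libraries. That difference held in every alternative run, whereas the siMENA11a fall against control was lost in 7 of 17, with an adjusted p of up to 0.13.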

How the results depend on the processing

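Of the 30 ligand comparisons, 12 passed. In the alternatives run for these 12, 177 of 199 values stayed past the threshold, 22 did not, and 0 turned direction; 7 of the 12 passed in every alternative run. The 18 others gave 293 values, of which 6 passed and 11 changed sign. Fewer genes passed when those with a repaired value were left out, at 1293, 1362 and 2716 for siMENA and siMENA11a against control and for the siRNA groups against each other, where 8461 instead of 13273 genes were tested; the part of the drop beyond that number was not tested. Leaving out 1 library gave 1346 to 2902 and 1493 to 2483 passing genes for siMENA and siMENA11a against control, beside 2463 and 2583. The counts fell by over 1.5 times for siMENA without control replicate 1 or 3 (1555 and 1446) or siMENA replicate 1 or 2 (1346 and 1572), and for siMENA11a without control replicate 3.

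Leaving out 1 library turned the sign of 6 small differences. They ranged from -0.178 to 0.0818 for CD274 with siMENA and from -0.0293 to 0.224 for TNFRSF14 with siMENA11a. Between the siRNA groups they ranged from -0.0667 to 0.0937 for PVR, -0.122 to 0.0706 for LGALS9, -0.234 to 0.0191 for TNFRSF14 and -0.186 to 0.0598 for CEACAM1. With the replicate block, 3149, 3431 and 5648 genes and 6, 5 and 5 ligands passed. VTCN1 then passed for siMENA against control (-0.40, limma adjusted p = 0.0175). CD276 (0.27, adjusted p = 0.037) and CD47 (0.20, adjusted p = 0.0419) then passed for siMENA11a against control, and PDCD1LG2 (-0.33, limma adjusted p = 0.0278) between the siRNA groups. CD47 also passed against control without siMENA11a replicate 2 (adjusted p = 0.0223), and PDCD1LG2 between the siRNA groups without siMENA replicate 3 (adjusted p = 0.0145). The ligands called in each comparison numbered 5, 3 and 4 also under median-ratio scaling and quantile normalization, and the median fold change of all genes stayed within 0.1 of 0. With a mean of 2 FPKM as the filter, CD274, PDCD1LG2 and LGALS9 were not tested. Without counts, the depth behind these scarce genes limits their precision by an amount that is unknown.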
